A study of Mus musculus with 9 samples.

Results

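A set of 10 genes known from fat cells was followed in subcutaneous mouse melanomas: the adipokine genes Adipoq, Lep and Retn, the lipid droplet and lipolysis genes Plin1, Cidec and Lipe, the fatty acid handling genes Cd36 and Fabp4, the transcription factor gene Pparg and the carbonic anhydrase gene Car3. They were chosen by symbol and make up 10 of the 22136 genes with summed reads. In these tumors the most fat-restricted of them were almost unread: Adipoq, Lep, Retn, Plin1 and Cidec had at most 10 estimated reads in any library. Lipe, Cd36, Fabp4, Pparg and Car3 had enough reads to be tested, and none of these 5 differed between the treatments past an adjusted p of 0.05.

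The tumors grew from YUMMER1.7 cells, a mouse melanoma line, injected under the skin of immunocompetent C57BL/6J mice. Antibody was given once tumors had reached a small set size, and the 9 libraries form groups of 3: IgG, an isotype control, anti-B7-H3, and anti-PD1. All groups share the cell line, the strain and the injection site, so each is a model of a single transplanted line. Total RNA of bulk tumor was depleted of ribosomal RNA before sequencing. The labels do not say that the libraries of a group come from separate mice, so a p-value here covers only the spread among the libraries, which may be technical.

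White adipocytes store triglyceride in a single large lipid droplet and release fatty acids from it on demand. PPARγ, the product of Pparg, together with C/EBPα drives their differentiation and switches on most of the other genes in this set. Mature fat cells also secrete hormones, the adipokines, and the fat layer under the skin lies next to the site where such tumors are implanted. Several of the 10 genes are not specific to fat: Cd36 is also made by macrophages, endothelium and muscle, Fabp4 by capillary endothelium and macrophages, and Car3 by slow skeletal muscle.

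The libraries were unequal in a way that bears on all low values. Satellite genes, 12 annotated genes that carry tandem repeat sequence, took 87.0 to 92.1% of gene reads under IgG, 5.24 to 28.2% under anti-B7-H3 and 14.6 to 38.2% under anti-PD1. Total estimated reads ranged from 8627930 to 27288766, but reads outside the satellite genes only from 1218985 in IgG replicate 3 to 14404557 in anti-B7-H3 replicate 3. Levels below are therefore CPM, counts scaled to the reads outside the satellite genes, or, where genes are compared with each other, TPM rescaled over the same genes, a unit that also divides by coding length. A gene with 0 reads could still hold up to 3 by counting error alone, which is 2.46 CPM in IgG replicate 3 and 0.208 CPM in anti-B7-H3 replicate 3. As a measure of background, the reads per coding base of 1509 receptor genes of smell and the vomeronasal organ, normally silent in other tissue, gave the number of reads that each of the 10 genes would hold at the receptors' density. Receptor reads came to 767 to 4969 CPM under IgG and 40.4 to 280 CPM in the antibody libraries.

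**Figure D1:**
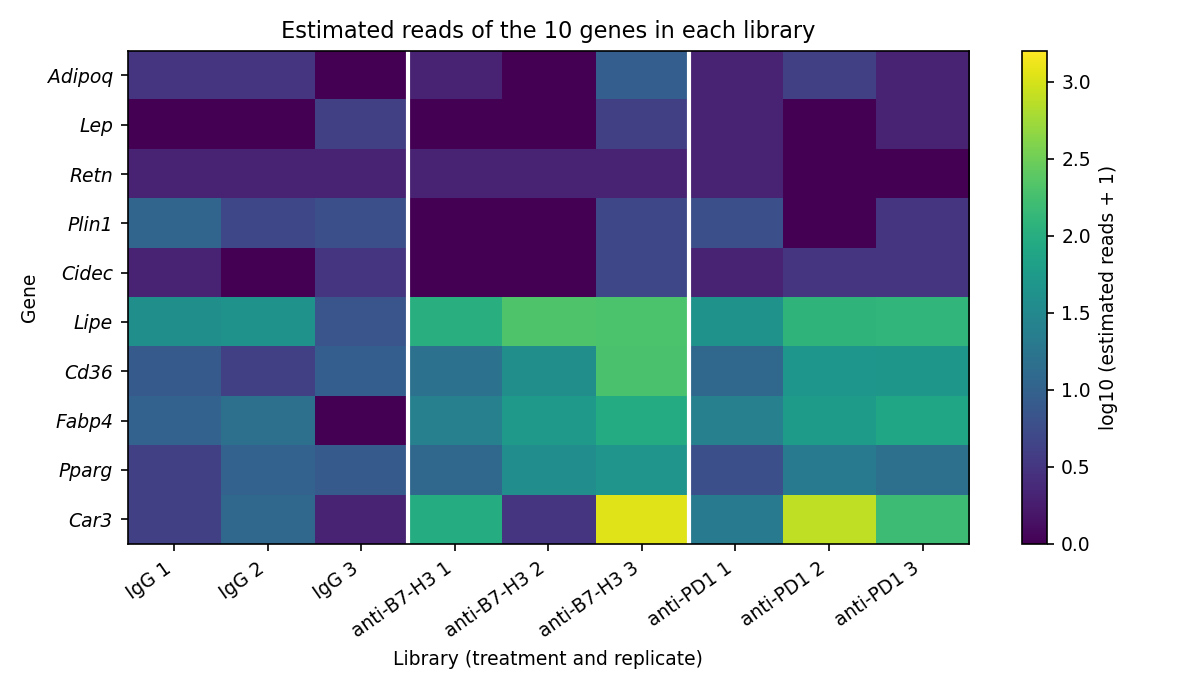
Estimated reads of the 10 genes (vertical axis, by gene) in the 9 libraries (horizontal axis, by treatment and replicate), with color giving log10 of the reads plus 1 and white lines between the treatments. The upper 5 genes stay at 10 reads or fewer in every library, and Car3 reaches 1093.9 reads in anti-B7-H3 replicate 3.

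The adipokine genes had few reads in every library. Adipoq (chr16:23146536-23158028 on GRCm38) encodes adiponectin, an insulin-sensitizing hormone made almost only by adipocytes. It had 2, 2 and 0 reads under IgG, 1, 0 and 8 under anti-B7-H3, and 1, 3 and 1 under anti-PD1, which is 18 in all. Anti-B7-H3 replicate 3 held the most reads, but the highest level was in IgG replicate 1, at 0.931 CPM against 0.555 CPM, and the groups overlapped.

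Lep (chr6:29060220-29073877) encodes leptin, the hormone that reports fat stores to the brain. It had reads in 4 of 9 libraries: 3 in IgG replicate 3, 3 in anti-B7-H3 replicate 3, and 1 each in anti-PD1 replicates 1 and 3. Retn (chr8:3655770-3660110) encodes resistin, a secreted peptide of mouse fat, and never had more than 1 read. Lep and Retn together held 15 reads over the 9 libraries, so neither gene can be ordered across treatments at this depth.

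Genes for proteins that coat and shape the lipid droplet were also near the floor. Plin1 (chr7:79720218-79732903, minus strand) encodes perilipin 1, which covers the droplet and gates access of lipases. Plin1 had 10, 4 and 5 reads under IgG, 0, 0 and 4 under anti-B7-H3, and 5, 0 and 2 under anti-PD1. On the CPM scale that was 4.66, 1.13 and 4.10 under IgG, 0, 0 and 0.278 under anti-B7-H3, and 0.940, 0 and 0.209 under anti-PD1, so every IgG library lay above every antibody library. Groups also did not overlap for 16.3% of all tested genes between anti-B7-H3 and IgG. Between anti-PD1 and IgG the share was 23.0%, both counted on the scale of the test described below. Cidec (chr6:113424634-113435760, minus strand) encodes a protein that fuses droplets into larger ones, and it had between 0 and 4 reads.

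These 5 genes did not pass the read filter and have no place in the main test. Fits without that filter do give Plin1 a value. In DESeq2's Wald test Plin1 was lower under anti-B7-H3 than under IgG by a log2 fold change of -5.29 ± 1.58 (SE), adjusted p = 0.0107, while edgeR's quasi-likelihood test without a filter gave -4.80 ± 1.48, adjusted p = 0.0562. For anti-PD1 against IgG the Plin1 values were -3.41 ± 1.47 in DESeq2, adjusted p = 0.0949, and -3.19 ± 1.39 in unfiltered edgeR, adjusted p = 0.136. The call for Plin1 therefore exists in 1 tool and 1 comparison only, and DESeq2 called 15.6% of all genes with an adjusted p in that comparison. The receptor background moved the same way: Plin1 reads were 2.15, 1.54 and 0.859 times the number predicted from receptor reads in the IgG libraries, so IgG levels of Plin1 were near the receptors' density. Its part in the Plin1 difference was not tested.

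Summed over Adipoq, Lep, Retn, Plin1 and Cidec, the IgG libraries held 14, 7 and 11 reads where receptor reads predicted 11.7, 6.53 and 14.6. Anti-B7-H3 replicates 1 and 2 held 2 and 1 reads against 3.45 and 1.35 predicted. The 3 anti-PD1 libraries held 9, 5 and 6 reads, between 2.32 and 3.19 times the prediction. In 5 of the 6 libraries of the IgG and anti-B7-H3 groups, the sum was thus between 0.579 and 1.20 times what the receptor density gives.

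Anti-B7-H3 replicate 3 stood apart. It held 20 reads of the 5 genes against 1.40 predicted, 14.3 times the prediction: 8 of Adipoq, 4 of Plin1, 4 of Cidec, 3 of Lep and 1 of Retn. Relative to prediction Adipoq was at 29.9 times, Lep at 16.6 times, Cidec at 14.8 times and Plin1 at 7.16 times. As a level these remain low: Adipoq was at 0.714 TPM there, and the 5 genes together at 1.39 CPM, below the 1.98 to 9.02 CPM of the IgG libraries. In bulk RNA, fewer cells of a type and less RNA per cell cannot be told apart. Against the marker genes of mature fat, then, the label of adipocyte genes describes where these genes are known from and not a fat signal that was high in the tumors.

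**Figure D2:**
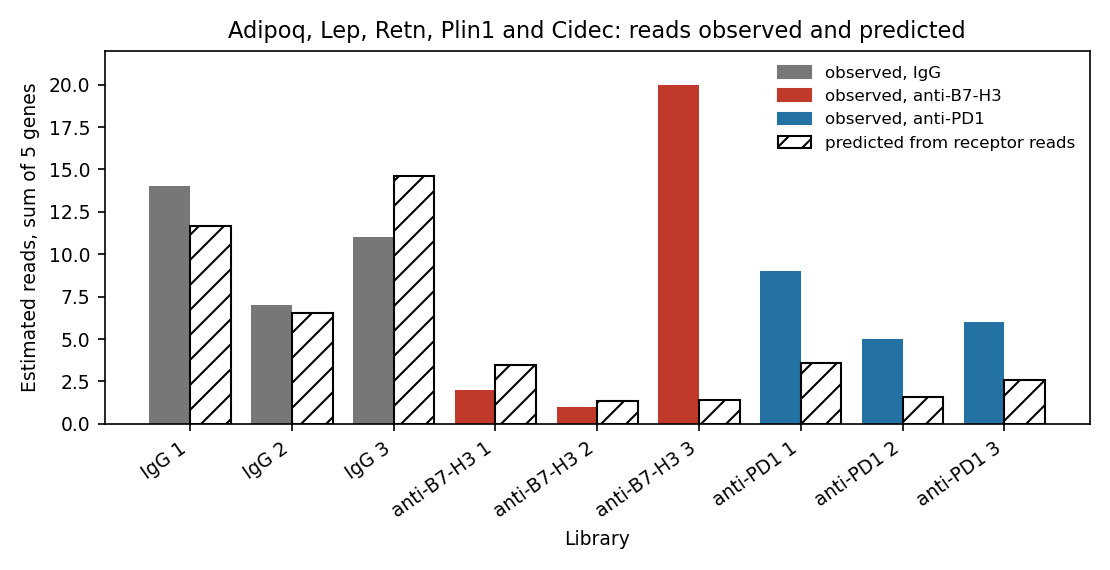
Summed estimated reads of Adipoq, Lep, Retn, Plin1 and Cidec (filled bars, colored by treatment) beside the reads predicted from olfactory and vomeronasal receptor genes (hatched bars) in each of the 9 libraries. The IgG bars lie close to their predictions, and anti-B7-H3 replicate 3 has 20 reads against 1.40 predicted.

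Lipe (chr7:25379527-25398710, minus strand) encodes hormone-sensitive lipase, which splits diacylglycerol during lipolysis in fat and also acts as a cholesteryl ester hydrolase in other cells. Lipe stood at 17.7, 12.2 and 4.92 CPM under IgG, 14.1, 15.3 and 13.6 CPM under anti-B7-H3, and 7.90, 14.5 and 13.1 CPM under anti-PD1. The anti-B7-H3 libraries were close together and lay inside the IgG range, and the lowest value, in IgG replicate 3, rests on 6 reads. Group means of Lipe were 11.6 ± 6.41 CPM (SD, n = 3) under IgG, 14.3 ± 0.868 CPM under anti-B7-H3 and 11.8 ± 3.47 CPM under anti-PD1.

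In the antibody libraries Lipe held 14.2 to 186 times the reads that receptor density predicts, and under IgG 0.498 to 7.97 times. In the antibody libraries nearly all Lipe reads were assigned to the transcript Lipe-201, with a coding length of 2409 bases, whereas it took 38 of 38, 11 of 43 and 0 of 6 reads in the IgG libraries. Lipe was thus read above background in all 6 antibody libraries, while Plin1, its partner at the droplet, had 0 reads in 3 of them.

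Cd36 (chr5:17781690-17888801, minus strand) encodes a membrane receptor for long-chain fatty acids and oxidized lipoprotein. Cd36 stood at 3.26, 0.849 and 6.56 CPM under IgG, 2.07, 2.72 and 13.3 CPM under anti-B7-H3, and 2.07, 5.68 and 5.12 CPM under anti-PD1. A single library, anti-B7-H3 replicate 3, was the highest, with 192 reads, and the groups overlapped. The IgG levels of Cd36 rest on 7, 3 and 8 reads, which is 1.26 to 1.65 times the receptor prediction, whereas the antibody libraries held 8.43 to 376 times theirs. Group means of Cd36 were 3.56 ± 2.87 CPM (SD, n = 3) under IgG, 6.04 ± 6.32 CPM under anti-B7-H3 and 4.29 ± 1.94 CPM under anti-PD1.

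Fabp4 (chr3:10204088-10208576, minus strand) encodes a small cytosolic carrier of fatty acids that is abundant in fat. Fabp4 had 9, 14 and 0 reads under IgG, 24, 52 and 91 under anti-B7-H3, and 24, 55.7 and 76 under anti-PD1. As levels these were 4.19, 3.96 and 0 CPM under IgG, 3.32, 3.82 and 6.32 CPM under anti-B7-H3, and 4.51, 6.69 and 7.94 CPM under anti-PD1. On this scale all 3 anti-PD1 libraries were above all 3 IgG libraries, but on the scale of the test, where libraries are matched on their typical gene, the groups overlapped. On the scale of the test, 23.0% of all tested genes had anti-PD1 and IgG groups that did not overlap. Group means of Fabp4 were 2.72 ± 2.36 CPM (SD, n = 3) under IgG, 4.49 ± 1.61 CPM under anti-B7-H3 and 6.38 ± 1.73 CPM under anti-PD1.

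Pparg (chr6:115360951-115490399) had 3, 9 and 7 reads under IgG, 11, 36 and 46 under anti-B7-H3, and 5, 19 and 14 under anti-PD1. Its levels were 1.40, 2.55 and 5.74 CPM under IgG, 1.52, 2.65 and 3.19 CPM under anti-B7-H3, and 0.940, 2.29 and 1.46 CPM under anti-PD1. The highest Pparg level, in IgG replicate 3, rests on 7 reads, 1.23 times the receptor prediction, and the groups overlapped. Group means of Pparg were 3.23 ± 2.25 CPM (SD, n = 3) under IgG, 2.45 ± 0.853 CPM under anti-B7-H3 and 1.56 ± 0.678 CPM under anti-PD1.

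Of 4 listed transcripts of Pparg, a pair took nearly all reads, and they are compared because only one of them is the fat-enriched form, PPARγ2. Pparg-201 codes for PPARγ2 and has 1518 coding bases, and Pparg-202 has 1428 bases that equal the 3′ part of Pparg-201. The 90 bases that only Pparg-201 has, which add 30 codons at the start of the protein, are, from the GENCODE M21 transcript:
Pparg-201 extra coding bases: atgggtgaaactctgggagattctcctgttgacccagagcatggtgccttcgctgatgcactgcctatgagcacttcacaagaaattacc
Pparg-201 was given 3, 0 and 7 reads under IgG, 11, 30.6 and 19.5 under anti-B7-H3, and 0, 19 and 14 under anti-PD1. Pparg-202 was given 9 reads in IgG replicate 2, 26.5 in anti-B7-H3 replicate 3 and 5 in anti-PD1 replicate 1, with none elsewhere, and the shorter Pparg-207, took 5.4 reads in anti-B7-H3 replicate 2. In 7 of 9 libraries a single transcript thus took all Pparg reads. Since Pparg-201 and Pparg-202 share every base of the shorter one and only the 90 bases tell them apart, at these depths the split is uncertain.

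The promoter before the Pparg-201 start is shown next because it holds matches to a C/EBP-type motif and lies at the start of the form that most Pparg reads were assigned to. It covers chr6:115421816-115422115 on the plus strand of GRCm38.p6, from 250 bases before to 50 bases after the start, as RefSeq gives it, with matches to TTNNGCAA on either strand in capitals:
Pparg promoter: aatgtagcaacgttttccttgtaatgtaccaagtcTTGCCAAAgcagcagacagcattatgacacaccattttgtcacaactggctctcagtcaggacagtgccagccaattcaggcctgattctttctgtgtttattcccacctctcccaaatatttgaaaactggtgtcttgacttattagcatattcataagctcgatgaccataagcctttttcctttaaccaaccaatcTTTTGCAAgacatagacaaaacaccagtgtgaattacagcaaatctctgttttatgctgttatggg
The matches begin 215 and 16 bases before the start. RefSeq promoters were matched for 8 of the 10 genes, 12 promoters in all; Fabp4 and Car3 were the other two. TTNNGCAA, searched on both strands, was found in 4 of those 12 promoters (1 each of Lep, Cidec, Pparg and Plin1) and in 10.8% of all 32544 promoters of the same length. AGGTCA, the core site of nuclear receptors, was found in 3 of the 12 promoters, belonging to Cd36 and Pparg, and in 16.3% of all. A direct repeat of AGGTCA with 1 base between the copies, which contains the shorter motif, was in 0 of the 12 and in 0.0400% of all. These are letter matches, with no measurement of binding.

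Car3 (chr3:14863512-14872523) encodes a carbonic anhydrase that is very abundant in both white fat and slow muscle. Its reads ran from 1 in IgG replicate 3 to 1093.9 in anti-B7-H3 replicate 3. Car3 stood at 1.40, 3.11 and 0.820 CPM under IgG, 13.1, 0.147 and 75.9 CPM under anti-B7-H3, and 3.57, 93.3 and 16.2 CPM under anti-PD1. Anti-B7-H3 replicate 2 had 2 reads of Car3, fewer than 2 of the IgG libraries, while anti-PD1 replicate 2 had 775.9. The IgG levels of Car3 rest on 3, 11 and 1 reads, which is 1.28, 8.38 and 0.341 times the receptor prediction. The antibody libraries held 7.35 to 3886 times theirs. Group means of Car3 were 1.78 ± 1.19 CPM (SD, n = 3) under IgG, 29.7 ± 40.5 CPM under anti-B7-H3 and 37.7 ± 48.6 CPM under anti-PD1.

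**Figure D3:**
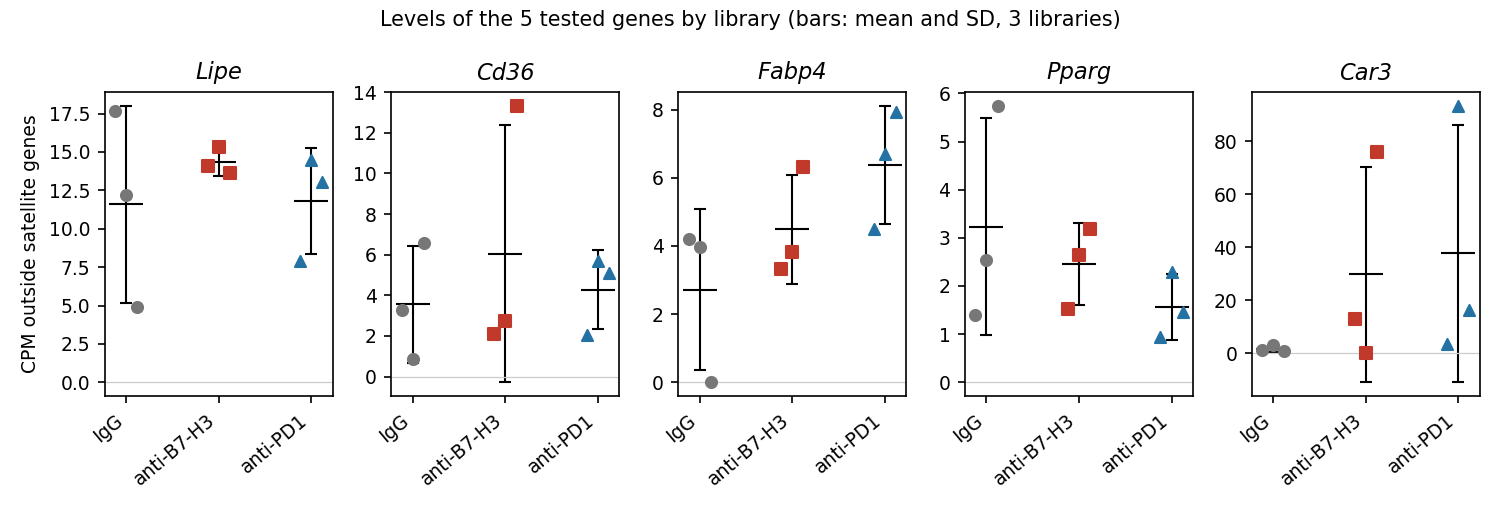
Levels of Lipe, Cd36, Fabp4, Pparg and Car3 in CPM over the reads outside the satellite genes (vertical axes) by treatment, with a point per library and black bars for the mean and SD of 3 libraries; the axes differ between genes. Lipe in anti-B7-H3 libraries lies within 13.6 to 15.3 CPM, and Car3 spans 0.147 to 75.9 CPM in the same 3 libraries.

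Compared with each other per coding length, the 10 genes ordered by mean TPM over the 9 libraries as Car3 at 26.1, Fabp4 at 13.5, Lipe at 4.01, Cd36 at 3.50, Plin1 at 1.27, Pparg at 1.19, Retn at 0.693, Lep at 0.629, Cidec at 0.524 and Adipoq at 0.470 TPM. Car3 is first through a few libraries: Fabp4 had the highest TPM of the 10 in 5 libraries, Car3 in 3 and Cd36 in 1. Plin1 stands above Pparg through the IgG group, with means of 3.36 TPM there, 0.130 under anti-B7-H3 and 0.330 under anti-PD1. Pparg averaged 1.25 TPM under IgG, 1.51 under anti-B7-H3 and 0.816 under anti-PD1. The ranges of all neighbours in this order overlapped; Fabp4, for example, ran from 0 to 25.4 TPM and Lipe from 1.61 to 5.17 TPM. The lowest place also changed with the group: by group mean it belonged to Cidec under IgG at 0.613 TPM and under anti-B7-H3 at 0.124 TPM, and to Retn under anti-PD1 at 0.240 TPM.

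No member of the set passed the test between anti-B7-H3 and IgG. In edgeR's quasi-likelihood test over 12965 genes, 0 of 5 passed an adjusted p of 0.05 and 0 had an unadjusted p under 0.05, where 0.555% of all tested genes passed the adjusted threshold and 10.5% the unadjusted one. The fitted log2 fold changes were 3.63 ± 2.28 (SE) for Car3 (adjusted p = 0.645), 0.67 ± 0.92 for Cd36 (adjusted p = 0.859), 0.38 ± 0.57 for Fabp4 (adjusted p = 0.873), 0.04 ± 0.32 for Lipe (adjusted p = 0.990) and -0.58 ± 0.67 for Pparg (adjusted p = 0.822). The test centres libraries on their typical gene; scaled by totals outside the satellite genes, as the CPM values are, the median of all tested genes was 0.27 higher than zero for anti-B7-H3 and 0.25 for anti-PD1 against IgG. No gene of the 5 had groups that did not overlap, against 16.3% of all tested genes. The Cd36 value turns to -0.70 without anti-B7-H3 replicate 3, and the Car3 value falls to 1.38. DESeq2 called Plin1 as given above and none of the other 7 genes of the set to which it gave an adjusted p.

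The same held between anti-PD1 and IgG. In edgeR's quasi-likelihood test 0 of 5 passed and 0 had an unadjusted p under 0.05, against 0.393% of all tested genes past the adjusted threshold and 18.5% past the unadjusted one. DESeq2 called 0 of the 6 to which it gave an adjusted p, and 13.5% of all genes. Log2 fold changes were 3.94 ± 2.27 for Car3 (adjusted p = 0.401), 0.89 ± 0.57 for Fabp4 (adjusted p = 0.432), 0.17 ± 0.93 for Cd36 (adjusted p = 0.953), -0.24 ± 0.32 for Lipe (adjusted p = 0.731) and -1.23 ± 0.69 for Pparg (adjusted p = 0.369). Car3 was the 1 gene of the 5 whose groups did not overlap, where 23.0% of all tested genes did not, and its change falls to 2.12 without anti-PD1 replicate 2. Both antibody comparisons use the same IgG libraries, so their values are not independent of each other.

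Between the antibodies, edgeR's quasi-likelihood test called 0 of the 5 genes, with 0 at an unadjusted p under 0.05, while 0.0% of all tested genes passed the adjusted threshold and 6.48% the unadjusted one. DESeq2 called 0 of 6, and 0.115% of all genes. Anti-B7-H3 minus anti-PD1 differences in log2 were 0.65 ± 0.61 for Pparg (adjusted p = 0.835), 0.50 ± 0.78 for Cd36 (adjusted p = 0.910), 0.27 ± 0.29 for Lipe (adjusted p = 0.857), -0.31 ± 1.52 for Car3 (adjusted p = 0.981) and -0.51 ± 0.50 for Fabp4 (adjusted p = 0.842). The standard errors of Car3 were 1.52 log2 units or more in all 3 comparisons, so even differences of several fold were not detectable for it.

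**Figure D4:**
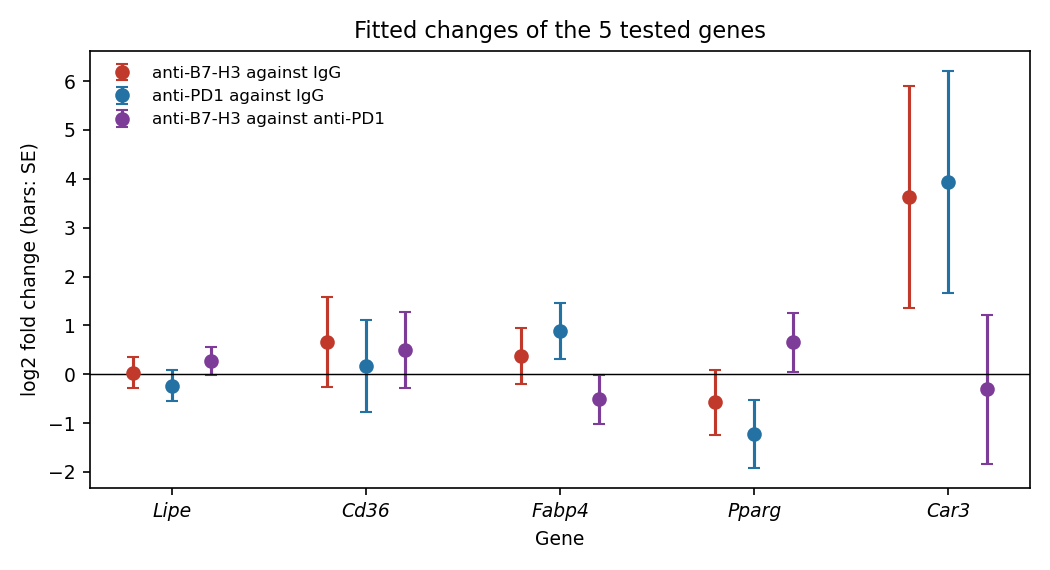
Fitted log2 fold changes (vertical axis) of the 5 tested genes in the 3 treatment comparisons, with bars for 1 SE. Car3 has the largest estimates against IgG, 3.63 and 3.94, with the widest bars, and Lipe lies within 0.27 of zero in each comparison.

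Car3 was read beside skeletal muscle genes. The summed level of 14 muscle genes, such as the sarcomere genes Acta1 and Mylpf, was 280 to 463 CPM under IgG, 2238, 67.0 and 10130 CPM under anti-B7-H3, and 623, 4918 and 3563 CPM under anti-PD1. The anti-B7-H3 library lowest for Car3, replicate 2, was also the lowest of all 9 for muscle, and the libraries highest for Car3, anti-PD1 replicate 2 and anti-B7-H3 replicate 3, were the highest for muscle. For every 1000 muscle reads there were 4.98, 6.73 and 2.39 Car3 reads under IgG, 5.87, 2.19 and 7.50 under anti-B7-H3, and 5.73, 19.0 and 4.54 under anti-PD1. Over the 9 libraries Car3 ran from 0.147 to 93.3 CPM, and from 2.19 to 19.0 reads per 1000 muscle reads. The lowest ratios rest on 2 Car3 reads in anti-B7-H3 replicate 2 and 1 in IgG replicate 3. These ratios also depend on Ttn, which held 855 of the 911 muscle reads in anti-B7-H3 replicate 2. Ttn held 415 of 602 in IgG replicate 1, 283.7 of 418 in IgG replicate 3 and 12579.4 of 40889 in anti-PD1 replicate 2. Ratios without Ttn were not computed.

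The tested genes whose levels ran most like those of Car3 over the 9 libraries, by Pearson correlation of log2 of scaled CPM plus 1, were Myl1 at 0.990, Mylpf at 0.987, Tnni2 at 0.987, Ndrg2 at 0.986 and Lmcd1 at 0.981. Myl1, Mylpf and Tnni2 encode parts of the fast muscle sarcomere. Within the 14 muscle genes, 14 of 14 had positive log2 fold changes against IgG with each antibody, with medians of 3.53 for anti-B7-H3 and 3.22 for anti-PD1 beside 0.03 and 0.01 for all tested genes. Of all tested genes, 53.3% and 50.5% had positive values. EdgeR's quasi-likelihood test called 0 of the 14 in either comparison, with 0 at an unadjusted p under 0.05 in both. Over all tested genes, 0.555% and 0.393% passed its adjusted threshold and 10.5% and 18.5% the unadjusted one. DESeq2 called 1 of 14, Tnnt3, for anti-B7-H3 and 0 for anti-PD1, beside 15.6% and 13.5% of all genes. The part of muscle tissue in the Car3 values was not tested.

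Cd36 also peaked in the library richest in muscle reads, anti-B7-H3 replicate 3. Its closest among all tested genes were Phkg1 at 0.947, Cfd at 0.932, Hfe2 at 0.929, St3gal6 at 0.927 and Prkcq at 0.920; Phkg1 and Hfe2 are muscle genes, and Cfd encodes adipsin, a serine protease secreted by fat cells. Like genes for Car3 and Cd36 were looked up after their values were seen. For Fabp4, which stands in for Adipoq and Plin1 because those were not tested, the closest outside the gene lists were Cldnd1 and Ndufb11 at 0.960, Gskip at 0.959, Serpinh1 at 0.955 and 2610301B20Rik at 0.953. With 9 libraries that differ in depth and satellite share, these correlations are descriptions only.

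**Figure D5:**
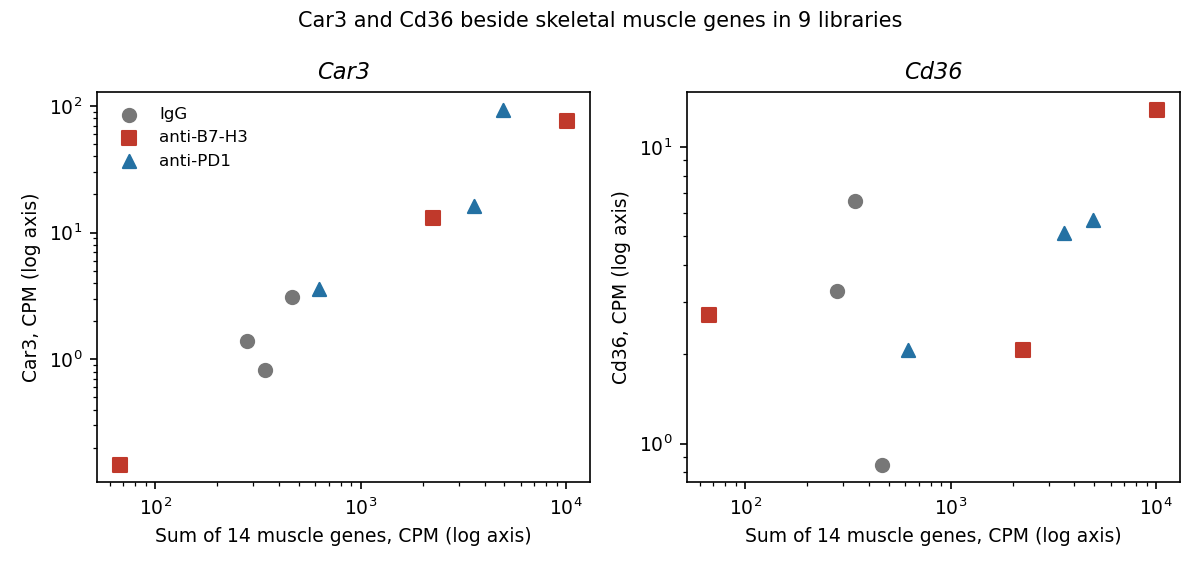
Level of Car3 and of Cd36 (vertical log axes, CPM) against the summed level of 14 skeletal muscle genes (horizontal log axis, CPM), with a point per library colored by treatment. Car3 runs with the muscle sum from 0.147 CPM at 67.0 CPM to 75.9 CPM at 10130 CPM, and Cd36 has its highest value, 13.3 CPM, at the same library.

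Markers of other cells that can make Cd36 and Fabp4 were read in every library. Macrophage genes, 10 including the complement genes C1qa and C1qb, summed to 339 to 1055 CPM under IgG, 1294 to 2261 CPM under anti-B7-H3 and 968 to 2569 CPM under anti-PD1. Endothelial genes, 10 including Cdh5 and Flt1, summed to 232 to 299 CPM, 234 to 391 CPM and 308 to 331 CPM in the same order. EdgeR's quasi-likelihood test called 0 of 10 in both lists in every comparison; at an unadjusted p under 0.05 there were 5 macrophage genes for anti-B7-H3 against IgG and 3 for anti-PD1 against IgG, with 0 between the antibodies and 0 endothelial genes in any comparison, while 10.5% and 18.5% of all tested genes had such a p against IgG. DESeq2 called 2 of the 10 macrophage genes, Adgre1 and Mrc1, higher with each antibody, and 15.6% and 13.5% of all genes. The part of these cells in Cd36 and Fabp4 was not tested.

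Around the 10 genes, 47 others of adipocyte biology were listed, of which 36 were tested. EdgeR's quasi-likelihood test called 0 of 36 in each comparison, with 4, 6 and 3 at an unadjusted p under 0.05 for anti-B7-H3 against IgG, anti-PD1 against IgG and anti-B7-H3 against anti-PD1, where 10.5%, 18.5% and 6.48% of all tested genes had one. Of the 45 genes of the list with an adjusted p, DESeq2 called 3 lower under anti-B7-H3 than under IgG: Mlxipl, Ppargc1a and Sfrp5. It called 3 lower under anti-PD1 than under IgG (Mlxipl, Plin5 and Sfrp5) and 0 between the antibodies. Over all genes it called 15.6%, 13.5% and 0.115%. The calls rest on few IgG reads: 6, 3 and 12 of Sfrp5 and 7, 4 and 15 of Mlxipl. Ppargc1a had 10, 5 and 7 reads under IgG, and Plin5 7, 1 and 3. Receptor background was also higher under IgG, and its part in these calls was not tested. Log2 fold changes were positive for 20, 12 and 27 of the 36, with medians of 0.06, -0.26 and 0.17 beside 0.03, 0.01 and 0.01 over all tested genes.

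Of the secreted factors and droplet genes in that list, some were as scarce as the adipokines and others were not. Cfd had 3, 0 and 3 reads under IgG, 3, 3 and 40 under anti-B7-H3, and 3, 14 and 17 under anti-PD1. Plin4, a perilipin of adipocytes and muscle, had 21.3 reads in anti-B7-H3 replicate 3 and at most 4 in any other library. As levels, Cfd was highest in anti-B7-H3 replicate 3 at 2.78 CPM, whereas Plin4 was highest in IgG replicate 3 at 3.28 CPM, from 4 reads. Plin3, a droplet coat found in most tissues, ran from 26.3 to 91.7 CPM, and Angptl4, a secreted inhibitor of lipoprotein lipase, from 5.45 to 13.5 CPM. Plin2, the droplet coat of most non-fat cells, ran from 36.1 CPM in IgG replicate 3 to 186 CPM in anti-B7-H3 replicate 3.

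Lpl encodes lipoprotein lipase, which frees fatty acids from circulating triglyceride. Lpl stood at 0.466, 2.83 and 3.28 CPM under IgG, 3.32, 4.05 and 10.5 CPM under anti-B7-H3, and 3.01, 8.56 and 4.49 CPM under anti-PD1. It was highest in the same anti-B7-H3 library as Cd36, and its log2 fold change of 1.24 ± 0.71 against IgG did not pass edgeR's quasi-likelihood test (adjusted p = 0.581).

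Genes of fatty acid synthesis, which dividing cells also use, held the highest mean TPM of the list. Fasn, fatty acid synthase, stood at 586, 734 and 285 CPM under IgG, 866, 673 and 500 CPM under anti-B7-H3, and 514, 395 and 665 CPM under anti-PD1. Scd1, the desaturase that makes oleate, was at 61.4 to 98.5 CPM under anti-B7-H3 and 46.1 to 52.7 CPM under anti-PD1, groups that did not overlap. That Scd1 difference, 0.60 ± 0.21 in log2, did not pass edgeR's quasi-likelihood test (adjusted p = 0.749), and 15.4% of all tested genes had groups that did not overlap between the antibodies.

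Transcription factors of the list lay on both sides of Pparg in mean TPM, with Cebpa at 21.99 and Klf15 at 0.357 beside 1.19 for Pparg. Cebpa, the gene of C/EBPα, stood at 57.3, 38.8 and 17.2 CPM under IgG, 30.7, 32.7 and 21.5 CPM under anti-B7-H3, and 23.7, 27.1 and 20.8 CPM under anti-PD1. Its log2 fold change for anti-PD1 against IgG was -0.91 ± 0.29, the smallest adjusted p of the list in that comparison at 0.144 in edgeR's quasi-likelihood test. For anti-B7-H3 against IgG the smallest belonged to Ppargc1a, the coactivator PGC-1α, at -2.53 ± 0.76 (adjusted p = 0.191); Ppargc1a held 3 to 14 reads per library. Receptors for adipokines were read as well: Adipor2, an adiponectin receptor, rested on 26.3 to 44.7 CPM under IgG and 55.9 to 65.8 CPM under anti-B7-H3, a log2 difference of 0.41 ± 0.17 that did not pass the same test (adjusted p = 0.389).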

How the data were processed

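Total RNA of mouse tumors was sequenced by the authors in 9 libraries after ribosomal RNA depletion, per the labels' protocols. The deposited tables hold, per the file headers, estimated counts (expected reads per transcript, not normalized) and TPM scaled by effective length. The quantifier and the strand setting are not given in the sources used here. FastQC 0.11.8 and GRCm38 are named per the submitters' processing notes. Identifiers of 57409 of the 58083 transcripts occur in GENCODE M21. The listed length equals the annotated coding length for 92.2%, so reads in UTRs are not held. For each of the 10 genes, the transcript with the longest coding sequence shared 0 words of 31 bases with the coding sequences of other genes. Their other transcripts were not checked.

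Counts were summed per gene in Python 3.11.15 and rounded for the tests. CPM and TPM were rescaled over reads outside 12 satellite genes, those whose transcripts share more than 30% of their 15-base words with 3 seed genes. EdgeR 4.0.16 in R 4.3.3 fitted 1 robust quasi-likelihood model to all 9 libraries with TMM scaling, filterByExpr and group as the only term; 12965 genes were tested, 8623 with reads were not, and the threshold was a Benjamini-Hochberg adjusted p of 0.05. The biological coefficient of variation was 28.4%. A change is relative to the typical gene. For edgeR, the SE of a log2 fold change was recovered as its absolute value divided by the square root of the F statistic. The test was checked on simulated counts. For anti-B7-H3 against IgG, anti-PD1 against IgG and anti-B7-H3 against anti-PD1 it recovered 20, 21 and 26% of 2-fold changes. Of 4-fold changes it recovered 68, 70 and 77%. False calls made up 5.38, 3.19 and 11.2% of its calls in the same order. DESeq2 1.42.0, other scalings and filters, a replicate block and leaving out libraries were alternatives.

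The members, gene lists and background measures were chosen with earlier results of these data known. All 10 members are named; of every other list, those past the threshold and the 2 with the highest mean TPM; and the 5 tested genes outside the lists most correlated with Adipoq and Plin1, or with Fabp4 where these were not tested. Other list genes in the text were chosen after their values were seen.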

Additional observations from a re-analysis of the deposited data

How the results depend on the processing

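The 5 tested genes were recomputed under 18 alternatives, of which 9 left out a library. Of 268 values, 241 kept their direction and side of the threshold, 20 changed direction and 7 newly passed in the same direction. Counting 3 that passed with their direction changed, 10 newly passed, all by scaling to library totals, which moved the median gene by 3.37 for anti-B7-H3 against IgG, by 3.15 for anti-PD1 against IgG and by 0.20 between the antibodies. Outside that scaling the lowest adjusted p of a tested member was 0.0762, for Car3 in DESeq2. The numbers of members called were 5 and 5 against IgG by library totals, and 1 (Plin1) by DESeq2 for anti-B7-H3 against IgG.

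Depth was lowest in IgG replicate 3, with 1218985 reads outside the satellite genes, and 5 of the 10 genes had too few reads for the filter. For anti-B7-H3 against IgG, Lipe turned to -0.02 without IgG replicate 2, -0.16 without IgG replicate 3 and -0.01 without anti-B7-H3 replicate 2; Cd36 turned to -0.70 without anti-B7-H3 replicate 3 and -0.72 without both libraries highest for muscle; and Pparg turned to 2.85 by library totals and 0.18 without IgG replicate 3. For anti-PD1 against IgG, Lipe turned to 2.97 by library totals and 0.13 without IgG replicate 1; Cd36 turned to -0.50 without IgG replicate 2, -0.03 without anti-PD1 replicate 2, -0.01 without anti-PD1 replicate 3 and -0.11 without both muscle-high libraries; and Pparg turned to 2.01 by library totals. Between the antibodies, Cd36 turned to -0.82 without anti-B7-H3 replicate 3 and -0.61 without both muscle-high libraries, and Car3 to 0.03 without anti-B7-H3 replicate 1, 0.27 without anti-B7-H3 replicate 2 and 1.52 without anti-PD1 replicate 2. When leaving out 1 library at a time, the values for anti-B7-H3 against IgG ran up to 0.40 for Lipe and 1.57 for Cd36 and down to -1.02 for Pparg, those for anti-PD1 against IgG down to -0.43 for Lipe and up to 1.07 for Cd36, and those between the antibodies up to 0.89 for Cd36 and down to -2.57 for Car3. The cause was not tested.

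Over all genes, 72 passed for anti-B7-H3 against IgG. That became 12529 by library totals, 118 by totals outside the satellite genes, 2841 in DESeq2, 1097 without a filter, 146 with at least 10 reads in 3 libraries, 20 with only the libraries compared, 14 without both muscle-high libraries, and 8 to 441 when leaving out 1 library. For anti-PD1 against IgG the 51 became 12333, 19, 2346, 731, 87, 88 and 12 in the same order, and 9 to 432. Between the antibodies the 0 became 23 by library totals, 20 in DESeq2 and 4 without a filter.

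The replicate block gave 98 and 124 genes past the threshold against IgG and turned Car3 between the antibodies to 0.15. Same-numbered libraries correlated between -0.324 and 0.18 in their deviations from group means, and differently numbered ones between -0.434 and 0.522. The labels do not say whether the numbers pair libraries. These correlations cannot decide it, since they come from deviations within groups of 3 that also differ in depth and satellite share.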

Other observations

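Resistin has close relatives, of which Retnla and Retnlg differed from Retn in their reads. Another relative, Retnlb, was scarce like Retn, at a mean of 0.429 CPM under IgG and 0 CPM under each antibody. Retnla, a resistin-like gene known from alternatively activated macrophages and fat, had 0 reads in every IgG library, 2, 0 and 58 under anti-B7-H3, and 3, 28.6 and 0 under anti-PD1. Retnlg, known from neutrophils, had 0 reads under IgG, 3, 1 and 33 under anti-B7-H3, and 0, 4 and 2 under anti-PD1. Both were highest in anti-B7-H3 replicate 3, where Retn had 1 read; they were looked at after the values were seen. Of 5 paralogs listed, the highest by TPM were Fabp5, at 16.5 ± 2.61 CPM (SD, n = 3) under IgG, 20.99 ± 12.2 CPM under anti-B7-H3 and 19.9 ± 7.94 CPM under anti-PD1, and Car2, at 2.56 ± 1.24, 2.57 ± 0.657 and 1.49 ± 0.576 CPM.

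Genes of brown fat gave no clearer signal than those of white fat. Ucp1, the uncoupling protein that defines brown adipocytes, had 1 read each in anti-PD1 replicates 2 and 3 and 0 elsewhere. Cox8b averaged 0.189 ± 0.327, 0.555 ± 0.735 and 0.356 ± 0.528 CPM (SD, n = 3) under IgG, anti-B7-H3 and anti-PD1. It had 20 reads in anti-B7-H3 replicate 3 and 8 in anti-PD1 replicate 2, the libraries highest for muscle genes. In any other library it had at most 2. Prdm16, a transcription factor that other tissues also use, averaged 57.4 ± 13.2, 57.5 ± 14.04 and 46.0 ± 19.2 CPM (SD, n = 3). Levels of the 6 progenitor genes differed widely. Pdgfra, a marker of adipocyte progenitors and of other fibroblasts, averaged 381 ± 67.7, 479 ± 119 and 610 ± 85.1 CPM, and Cd34 131 ± 18.9, 166 ± 44.1 and 176 ± 24.0 CPM. Dlk1 averaged 30.26, 30.35 and 42.26 CPM. The others were scarcer, with Pi16 at 6.60, 12.3 and 5.10 CPM, Dpp4 at 4.36, 4.69 and 4.62 CPM, and Zfp423 at 5.15, 2.78 and 2.35 CPM. EdgeR's quasi-likelihood test called 0 of the 2 tested brown genes, 0 of the 6 progenitor genes and 0 of the 2 tested paralogs in every comparison. DESeq2 called Zic1 alone (1 of 5 brown genes with an adjusted p), lower under anti-B7-H3 than under IgG. In that comparison it called 15.6% of all genes. Zic1 had 7, 1 and 4 reads under IgG, and the part of the higher IgG receptor background in this call was not tested. At an unadjusted p under 0.05 there was 1 progenitor gene in each comparison and 0 of the others.

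Markers of skin cells and of the melanocyte lineage, the lineage of the melanoma line itself, were also read. Keratinocyte genes summed to 36.8 to 64.2 CPM under IgG, 6.62 to 13.4 CPM under anti-B7-H3 and 6.54 to 10.5 CPM under anti-PD1, with Krt10 averaging 7.08, 0.775 and 0.791 CPM and Sfn 8.24, 6.03 and 3.8 CPM. The 6 sebaceous gland genes, among them Soat1 and Mgst1, summed to 80.4 to 155 CPM over the 9 libraries. Most of that sum was Soat1, which ran from 67.3 to 142 CPM. In any library Mc5r had at most 4 reads, Scd3 3.1, Awat2 5 and Fa2h 8. The 9 melanocyte lineage genes, among them Mitf and S100b, summed to 15.4 to 47.6 CPM, with Mitf alone at 11.28 to 21.05 CPM. EdgeR's quasi-likelihood test called 0 of the 2 tested genes of each of these lists in every comparison. At an unadjusted p under 0.05 there were 1 and 2 keratinocyte genes against IgG under anti-B7-H3 and anti-PD1 and 0 otherwise, where 10.5% and 18.5% of all tested genes had such a p. In the same comparisons DESeq2 called lower 5 of 9 and 5 of 9 keratinocyte genes with an adjusted p, and 3 of 8 and 2 of 7 melanocyte genes. It called lower 1 of 6 and 0 of 5 sebaceous genes, while it called 15.6% and 13.5% of all genes in either direction. Receptor background moved the same way, at 767 to 4969 CPM under IgG and 40.4 to 280 CPM in the antibody libraries. Together the keratinocyte genes held 79, 226.9 and 69 reads under IgG, and the melanocyte genes 75, 76 and 58. The part of the background in these differences was not tested.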
